A study of Mus musculus with 8 samples.

Results

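Glycolysis splits glucose into pyruvate in the cytosol, and pyruvate is then either reduced to lactate and exported or oxidised in mitochondria by the pyruvate dehydrogenase complex. Most steps can be run by several isoenzymes, which are products of separate genes with different regulation, and the pyruvate dehydrogenase kinases switch the pyruvate dehydrogenase complex off. Pluripotent stem cells are known for strong glycolysis even when oxygen is present, and primed cells are known to rely on it more than naive cells do. The genes described here are a list of 34 mouse genes for glucose uptake, the glycolytic steps, lactate and pyruvate handling and the entry of the pentose phosphate pathway. They were chosen by name, with earlier results of these data known. Of these, 33 had RefSeq transcript rows among 22963 genes with such rows. Pdha1, the gene for the catalytic E1 alpha subunit of pyruvate dehydrogenase, had no such row, so its level is not analysed here.

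The cells were the male mouse embryonic stem cell line Bruce 4 (C57BL/6J, wild type), so every library comes from 1 line. They were kept for 2 weeks on gelatin or on the laminin isoform LN511, in Std medium or in 2i medium, and RNA was taken after that time. The composition of Std medium is not given in the sources used here; 2i is the usual name of a medium with 2 inhibitors, of MEK and of GSK3. The 4 groups are called gelatin Std, gelatin 2i, LN511 Std and LN511 2i below, with 2 biological replicates each according to the submitters, 8 libraries in all. Whether the replicates are separate cultures is not given in the sources used here, so p-values measure the spread between these libraries. The values are FPKM, the fragments on a transcript divided by its length and by the depth of the library, summed here over the RefSeq transcripts of a gene, so levels of different genes are compared per length. Where the values of a group are listed, replicate 1 comes first. A share of a step is taken over the summed FPKM of its members on the list only.

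The files hold no read counts, and judged from the steps between low values the depths of all libraries lay within a 1.2-fold range. If 1 step is 1 fragment, 1 fragment on a transcript of 2000 bases is worth 0.186 to 0.223 FPKM, so values of a few FPKM are coarse. Replicates correlated at Pearson r of 0.959 to 0.964 and libraries of different groups at 0.907 to 0.955 across 10278 tested genes, which are not independent replicates. The label of the cells was checked against marker genes: Pou5f1 stood at 949 to 1245 FPKM in every library, and 6 of 7 pluripotency markers had rows and were above 1 FPKM. Summed markers of primitive endoderm, of fibroblasts and of mesendoderm were at most 5.88 FPKM in any library, with the fibroblast genes Prrx1 and Postn at 0 throughout. The fibroblast sum was 4.83 to 5.88 FPKM in Std and 0.70 to 1.72 in 2i, the mesendoderm sum 0.00 to 1.30 in Std and 3.46 to 5.60 in 2i, and the neuroectoderm sum 11.2 to 23.0 in Std and 5.64 to 7.85 in 2i. The neuroectoderm difference lay in Nes, at 9.37 to 20.2 FPKM in Std and 2.39 to 4.74 in 2i. Sox1 went the other way, at 1.503 to 2.825 in Std and 2.995 to 3.252 in 2i. The trophoblast sum was 16.15 and 20.85 FPKM in gelatin Std and 25.96 and 26.33 in gelatin 2i. On LN511 it was 29.02 and 21.67 in Std and 17.75 and 16.18 in 2i. The media thus did not overlap on either coating, and the direction was opposite on gelatin and LN511. The trophoblast genes did not move together. On gelatin Tfap2c was at 6.51 and 9.48 FPKM in Std and 18.0 and 20.5 in 2i. Ascl2 was at 6.91 and 8.12 there in Std and 4.09 and 3.84 in 2i. On LN511 Krt7 was at 10.2 and 7.65 in Std and 1.14 and 0.289 in 2i. Cdx2 was at 0.544 and 0.534 there in Std and 1.813 and 2.155 in 2i. The part of such cells in the medium differences was not tested.

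Differences were tested with limma on log2(FPKM + 1), with all 8 libraries in 1 fit and p-values adjusted by Benjamini-Hochberg over the 10278 genes of each comparison. A gene was called at an adjusted p under 0.05. Fold changes on this scale understate the change of genes at a few FPKM. Of the 33 members, 31 were tested, Eno2 was below the filter on low values, and Ldha was listed at 0 in every library. The direction of the medium comparisons is 2i minus Std throughout.

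On gelatin, 10 of 31 members fell in 2i medium and 1 rose, where 7.20% of all tested genes fell and 8.20% rose. The count of 10 was 8 with the gelatin libraries fitted alone and with the limma prior not following the expression level. It was 13 after upper quartile scaling. On LN511, 14 of 31 fell and 1 rose, where 9.95% of all tested genes fell and 8.58% rose. The count of 14 was 8 without LN511 Std replicate 1 or replicate 2, with the LN511 libraries fitted alone, and with the limma prior not following the expression level. The median difference of the members was −0.15 on gelatin and −0.14 on LN511 on the log2 scale, against 0.00 and −0.04 over all tested genes. The comparisons share no library, but they share the estimate of the spread. The 10 genes that fell on both coatings were Slc2a1, Pfkl, Pfkfb3, Tpi1, Pgk1, Eno1, Ldhb, Pdk1, Slc16a3 and G6pdx. None rose on both. The share of all tested genes called in the same direction on both coatings was not worked out. Hk1 rose on gelatin and was not called on LN511. Pfkp (up), and Gapdh, Bpgm, Eno3 and Slc16a1 (down), were called on LN511 and not on gelatin, and 15 members were called in neither comparison. In these bulk libraries a smaller share of cells with a transcript and less of it per cell cannot be told apart.

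**Figure D1:**
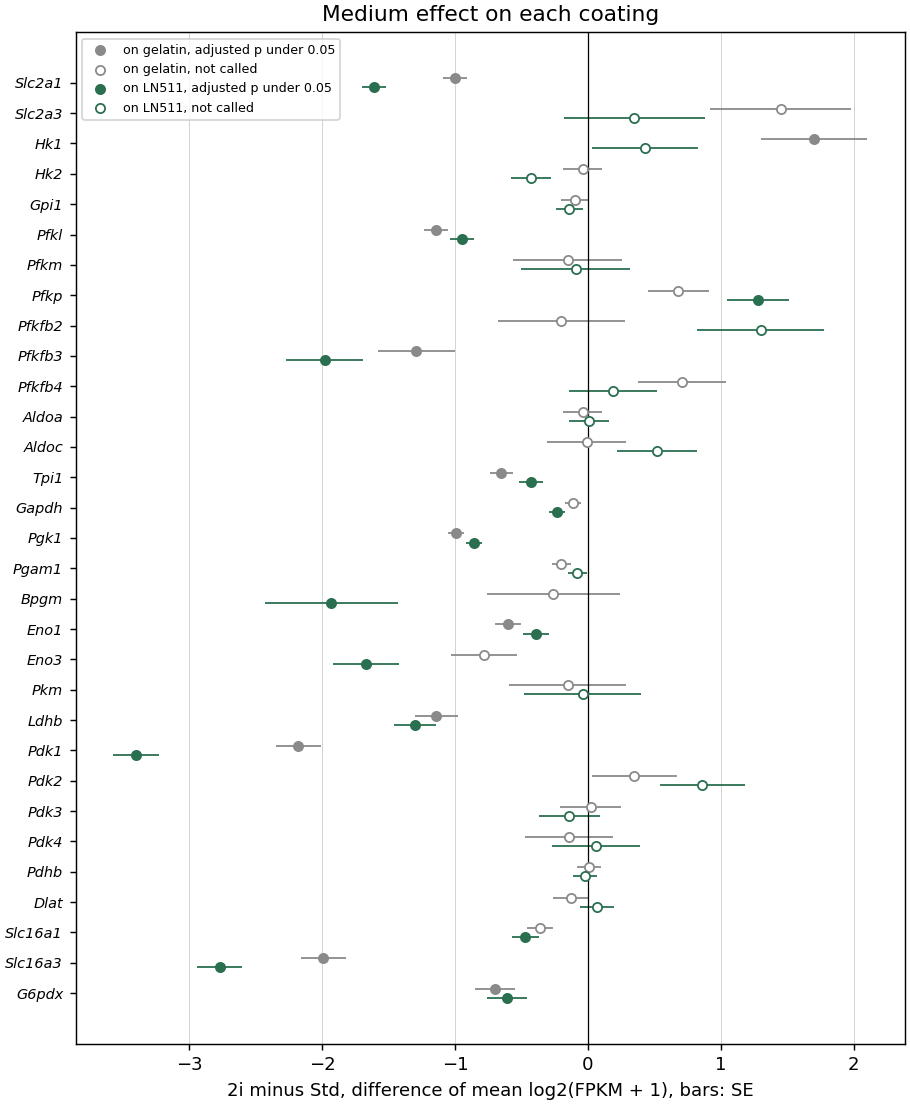
Difference of mean log2(FPKM + 1), 2i minus Std, for the 31 tested members in pathway order, with bars of 1 SE from the limma fit, grey for gelatin and green for LN511, and filled points where the adjusted p was under 0.05. The longest shifts to the left belong to Pdk1 (−2.18 on gelatin and −3.40 on LN511) and Slc16a3 (−1.99 and −2.77), while Aldoa, Gpi1, Pdhb and Dlat lie close to 0.

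Promoter sequences are shown for 5 of the 10 members that fell on both coatings and for the 2 that rose on 1 coating, because the hypoxia response element, the site that hypoxia-inducible factors bind, is a textbook feature of several glycolytic genes. Each runs 5′ to 3′ on the strand of the gene from 250 bases before to 50 bases after a transcript start, from RefSeq entries on GRCm38.p6, and capitals mark ACGTG or GCGTG on either strand (CACGT or CACGC when read on the other strand). The 5 were those with the largest mean absolute log2 difference over both coatings among the 10. All 7 genes were thus picked by their values, so their motif content is a description. The lines give Pdk1 (chr2:71872974-71873273, plus strand), Slc16a3 (chr11:120948817-120949116, plus), Pfkfb3 (chr2:11502041-11502340, minus), Slc2a1 (chr4:119108495-119108794, plus) and Ldhb (chr6:142507908-142508207, minus), which fell on both coatings, then Hk1 (chr10:62340372-62340671, minus) and Pfkp (chr13:6648722-6649021, minus), which rose on 1 coating each.
Pdk1: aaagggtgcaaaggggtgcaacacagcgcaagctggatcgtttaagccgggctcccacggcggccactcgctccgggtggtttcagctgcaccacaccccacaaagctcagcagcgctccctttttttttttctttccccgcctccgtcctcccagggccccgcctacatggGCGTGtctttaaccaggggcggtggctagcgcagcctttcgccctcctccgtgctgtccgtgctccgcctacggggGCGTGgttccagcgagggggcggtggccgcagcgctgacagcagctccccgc
Slc16a3: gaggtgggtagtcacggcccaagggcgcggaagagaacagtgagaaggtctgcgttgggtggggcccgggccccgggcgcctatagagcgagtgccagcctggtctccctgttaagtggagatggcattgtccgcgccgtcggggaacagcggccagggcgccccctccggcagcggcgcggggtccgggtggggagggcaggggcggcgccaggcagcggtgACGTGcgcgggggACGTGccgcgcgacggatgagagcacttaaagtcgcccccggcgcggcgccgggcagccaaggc
Pfkfb3: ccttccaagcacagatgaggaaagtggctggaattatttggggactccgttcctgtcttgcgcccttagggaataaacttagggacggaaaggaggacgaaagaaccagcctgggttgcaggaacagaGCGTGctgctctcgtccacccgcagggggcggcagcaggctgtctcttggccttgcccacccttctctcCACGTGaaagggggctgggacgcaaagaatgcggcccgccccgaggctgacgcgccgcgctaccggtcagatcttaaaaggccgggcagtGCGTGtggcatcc
Slc2a1: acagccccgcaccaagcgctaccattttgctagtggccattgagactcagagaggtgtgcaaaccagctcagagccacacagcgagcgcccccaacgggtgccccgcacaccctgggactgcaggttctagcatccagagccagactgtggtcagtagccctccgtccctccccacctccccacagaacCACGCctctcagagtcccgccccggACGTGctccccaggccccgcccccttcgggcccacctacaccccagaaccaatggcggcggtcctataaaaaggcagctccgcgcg
Ldhb: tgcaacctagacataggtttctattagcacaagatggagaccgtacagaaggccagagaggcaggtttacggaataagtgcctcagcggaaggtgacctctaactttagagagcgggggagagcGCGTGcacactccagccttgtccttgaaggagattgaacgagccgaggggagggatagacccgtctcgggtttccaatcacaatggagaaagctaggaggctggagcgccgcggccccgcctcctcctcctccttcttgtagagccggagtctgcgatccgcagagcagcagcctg
Hk1: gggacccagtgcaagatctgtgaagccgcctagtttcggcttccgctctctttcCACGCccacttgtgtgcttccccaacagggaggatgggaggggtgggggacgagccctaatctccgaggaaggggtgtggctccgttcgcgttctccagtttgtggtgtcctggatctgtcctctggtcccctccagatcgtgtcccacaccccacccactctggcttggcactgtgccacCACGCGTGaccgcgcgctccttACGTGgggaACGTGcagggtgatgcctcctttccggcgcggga
Pfkp: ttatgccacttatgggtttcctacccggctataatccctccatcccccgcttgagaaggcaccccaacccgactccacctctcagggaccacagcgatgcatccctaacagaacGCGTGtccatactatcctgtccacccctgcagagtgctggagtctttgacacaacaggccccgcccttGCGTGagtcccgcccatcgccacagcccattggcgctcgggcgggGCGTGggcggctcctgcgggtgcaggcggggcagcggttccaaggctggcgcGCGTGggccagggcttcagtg

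ACGTG or GCGTG was present in 43.8% of all 32851 promoter entries of the table and in 27 of the 33 members with an entry (81.8%). These 33 include Pdha1, and Slc2a3 had no entry. The entry used was the nearest to the start of the transcript with the highest FPKM. Some lay well away from it, by 314 bases for G6pdx, 244 for Eno1, 208 for Pkm and 149 for Bpgm. Others lay 138 bases away for Tpi1, 124 for Pfkfb4, 121 for Hk1 and 105 for Aldoc. Of these, Pkm, Bpgm and Tpi1 lacked both ACGTG and GCGTG, as did Gpi1, Eno2 and Dlat at 0 bases away. By call, ACGTG or GCGTG was present in 9 of the 10 members that fell on both coatings (90%). The same held for 11 of the 14 with an entry that were called in neither medium comparison (78.6%). The motif therefore stood in most members whether or not they were called. The E-box CACGTG, which contains ACGTG, was in 7.15% of all entries and in 4 of 33 members, and of the 7 promoters shown it stood in that of Pfkfb3. The windows were not matched for base composition; those shown hold 57.3% to 73.3% G and C. A match gives letters in a window and not a bound site.

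Glucose enters through facilitative transporters. Slc2a1, the widely expressed glucose transporter GLUT1, was at 203 and 186 FPKM on gelatin in Std, 98.8 and 94.6 on gelatin in 2i, 291 and 286 on LN511 in Std and 87.4 and 101 on LN511 in 2i. All Std libraries lay above all 2i libraries, and LN511 Std was the highest group. It fell by 1.00 ± 0.09 (SE) on gelatin (limma adjusted p = 0.00132) and by 1.61 ± 0.09 on LN511 (limma adjusted p = 0.000191), that is 2.01-fold and 3.06-fold lower by group means. Slc2a3, the high-affinity transporter GLUT3, had the highest mean of the step over the 8 libraries, at 133 and 92.8 FPKM on gelatin in Std, 362 and 257 on gelatin in 2i, 112 and 322 on LN511 in Std and 342 and 173 on LN511 in 2i. Its replicates differed by up to 2.87-fold, the LN511 groups overlapped, and it was called on neither coating (limma adjusted p = 0.122 on gelatin and 0.70 on LN511). As a share of the summed FPKM of both transporters, Slc2a1 held 47.0% to 72.1% in Std and 20.4% to 36.9% in 2i, a description without a test.

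Hexokinases trap glucose as glucose 6-phosphate. Hk2, the inducible form, was the dominant listed one with 75.2% to 94.0% of the summed FPKM of Hk1 and Hk2. It was at 78.2 and 87.0 FPKM on gelatin in Std, 81.4 and 79.4 on gelatin in 2i, 81.7 and 85.6 on LN511 in Std and 72.0 and 53.2 on LN511 in 2i. Adpgk, another isoenzyme from the neighbouring genes described below, was at 8.12 to 26.6 FPKM and is outside this share. Hk2 was not called in any comparison. On LN511 its difference of −0.43 had a limma adjusted p of 0.0919, and without LN511 2i replicate 1 it was −0.64 with 0.0199. Hk1, the widely expressed form, was at 6.04 and 8.55 FPKM on gelatin in Std, 26.8 and 24.6 on gelatin in 2i, 5.57 and 5.51 on LN511 in Std and 12.6 and 4.69 on LN511 in 2i. Gelatin 2i stood above every other library, while the 2 LN511 2i libraries lay on either side of LN511 Std. It rose by 1.70 ± 0.40 on gelatin (limma adjusted p = 0.0341), and the difference on LN511 was 0.43 ± 0.40 (limma adjusted p = 0.506). The call on gelatin was lost without any 1 of the 4 gelatin libraries or of the 2 LN511 Std libraries (limma adjusted p of 0.0633 to 0.151). Glucose 6-phosphate is turned into fructose 6-phosphate by Gpi1, which was at 285 and 279 FPKM on gelatin in Std, 247 and 281 on gelatin in 2i, 230 and 256 on LN511 in Std and 210 and 232 on LN511 in 2i. The groups overlapped on both coatings and Gpi1 was not called.

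Phosphofructokinase makes the committed step of glycolysis, and here Pfkl fell on both coatings while Pfkp rose on LN511. Pfkl, the liver type, was at 114 and 101 FPKM on gelatin in Std, 47.8 and 48.1 on gelatin in 2i, 93.9 and 92.0 on LN511 in Std and 46.7 and 48.5 on LN511 in 2i. Every 2i library was near the same level, well below every Std library. It fell by 1.14 ± 0.09 on gelatin (limma adjusted p = 0.000711) and by 0.95 ± 0.09 on LN511 (limma adjusted p = 0.00114). Pfkp, the platelet type, was at 34.9 and 37.6 FPKM on gelatin in Std, 58.2 and 58.9 on gelatin in 2i, 14.8 and 21.7 on LN511 in Std and 36.9 and 54.6 on LN511 in 2i. On both coatings the 2i libraries lay above the Std libraries, and LN511 Std was the lowest group. Pfkp rose by 1.28 ± 0.23 on LN511 (limma adjusted p = 0.0124), a call lost without LN511 Std replicate 1 (0.0608), and the difference on gelatin was 0.68 ± 0.23 (limma adjusted p = 0.0995, and 0.0317 with the gelatin libraries alone). Pfkm, the muscle type, ranged from 11.1 to 30.0 FPKM and was not called. Pfkl was thus the dominant isoenzyme in Std, with 63.6% to 73.4% of the step, whereas in 2i Pfkl held 38.6% to 45.2% and Pfkp 35.7% to 48.0%. In both gelatin 2i libraries and in LN511 2i replicate 2 the share of Pfkp exceeded that of Pfkl. The summed level of the step was 164 ± 20.4 FPKM (SD, n = 2) in gelatin Std, 123 ± 2.40 in gelatin 2i, 134 ± 8.63 in LN511 Std and 115 ± 16.0 in LN511 2i. Pfkm shares 981 bases with Senp1 and Pfkp 285 bases with Pitrm1, and whether the libraries kept strand is not given in the sources used here.

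**Figure D2:**
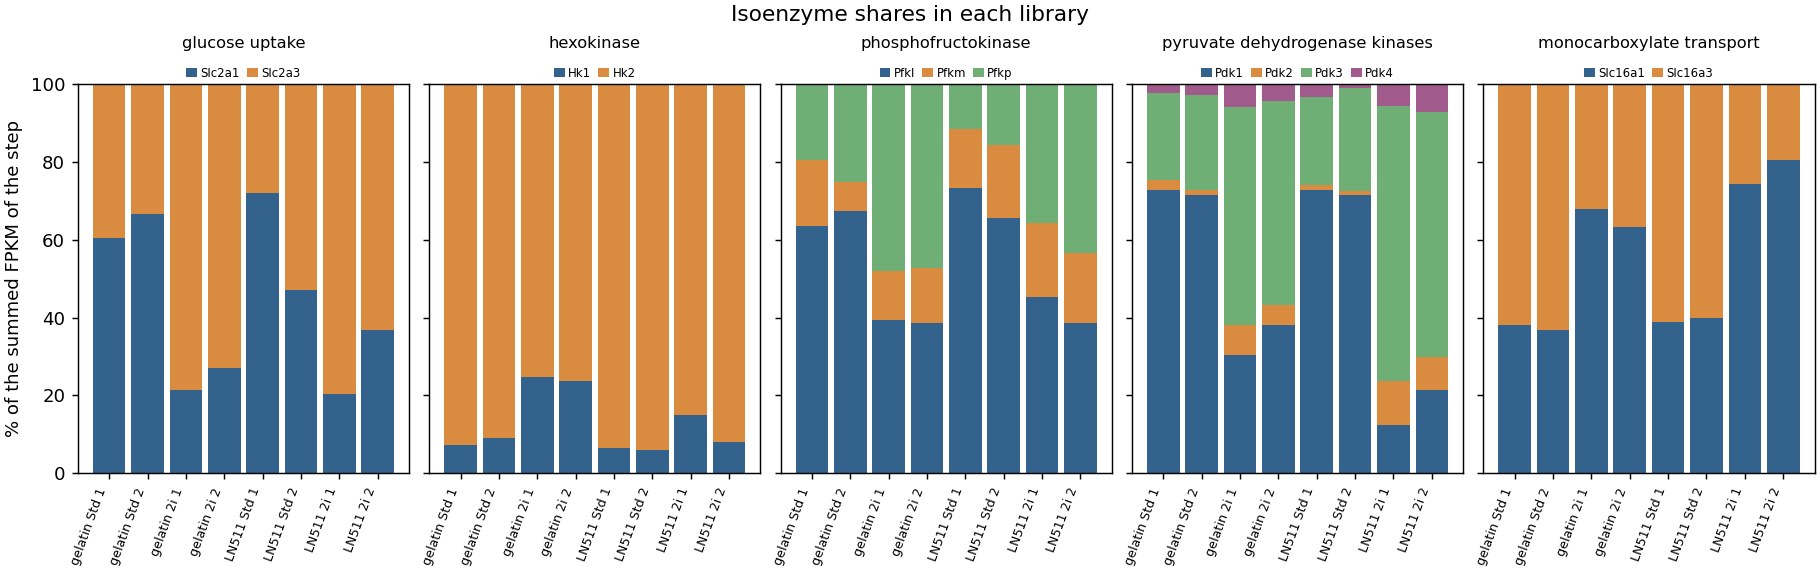
Percent of the summed FPKM of the listed members of a step held by each isoenzyme, 1 stacked bar per library, for glucose transporters, hexokinases, phosphofructokinases, pyruvate dehydrogenase kinases and monocarboxylate transporters. Hk2 is dominant in all 8 libraries, while Pdk1 takes 71.5% to 72.9% of its step in Std and 12.5% to 38.0% in 2i, and Slc16a3 60.0% to 63.2% in Std and 19.6% to 36.8% in 2i.

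The bifunctional PFKFB enzymes set the level of fructose 2,6-bisphosphate, an activator of phosphofructokinase. Pfkfb3, the inducible form with strong kinase activity, was at 6.13 and 6.28 FPKM on gelatin in Std, 2.26 and 1.65 on gelatin in 2i, 8.25 and 8.42 on LN511 in Std and 1.94 and 0.896 on LN511 in 2i. All Std libraries stood above all 2i libraries. In both LN511 2i libraries the main transcript was listed at 0, which can be a failed estimate. The value there came from a different minor transcript in each replicate. It fell by 1.29 ± 0.29 on gelatin (limma adjusted p = 0.0303) and by 1.98 ± 0.29 on LN511 (limma adjusted p = 0.00609). The call on gelatin was lost without any 1 of the 4 gelatin libraries or of the 2 LN511 Std libraries (limma adjusted p of 0.0571 to 0.126), and with a pseudocount of 0.1 (0.0522). Pfkfb2 was between 0 and 2.73 FPKM and Pfkfb4 between 0 and 1.37 FPKM, and neither was called. Pfkfb3 held 78.0% to 95.1% of the step in Std and 24.0% to 54.6% in 2i, and at these low levels the shares rest on few fragments.

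Aldolase splits fructose 1,6-bisphosphate into triose phosphates. Aldoa, the dominant form with 99.05% to 99.75% of the step, was at 859 and 962 FPKM on gelatin in Std, 753 and 1034 on gelatin in 2i, 938 and 955 on LN511 in Std and 898 and 1005 on LN511 in 2i. The groups overlapped and the differences were −0.04 ± 0.15 on gelatin and 0.01 ± 0.15 on LN511, neither of them called. Aldoc, the brain form, ranged from 2.35 to 7.48 FPKM and was not called. Tpi1, which interconverts the triose phosphates, was at 435 and 423 FPKM on gelatin in Std, 286 and 262 on gelatin in 2i, 411 and 401 on LN511 in Std and 280 and 325 on LN511 in 2i. Each 2i library lay below every Std library. Tpi1 fell by 0.65 ± 0.09 on gelatin (limma adjusted p = 0.00522) and by 0.43 ± 0.09 on LN511 (limma adjusted p = 0.0191), and the second call was lost without LN511 Std replicate 1 (0.0974) or replicate 2 (0.0807).

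Gapdh, glyceraldehyde phosphate dehydrogenase and often a reference gene, had the highest level of the members, at 3297 and 3223 FPKM on gelatin in Std, 2980 and 3042 on gelatin in 2i, 3504 and 3587 on LN511 in Std and 2883 and 3169 on LN511 in 2i. The 2i libraries were below the Std libraries of the same coating by a small margin. It fell by 0.23 ± 0.06 on LN511 (limma adjusted p = 0.0363), and the difference on gelatin was −0.11 ± 0.06 (limma adjusted p = 0.238, and 0.0314 after upper quartile scaling). The call on LN511 was lost without any 1 of the 4 gelatin libraries or of the 2 LN511 Std libraries (limma adjusted p of 0.0662 to 0.175). Pgk1, phosphoglycerate kinase, the first step that yields ATP, was at 810 and 803 FPKM on gelatin in Std, 397 and 411 on gelatin in 2i, 651 and 645 on LN511 in Std and 341 and 371 on LN511 in 2i. Its replicates differed by at most 1.09-fold, and no 2i library reached the level of a Std library. Pgk1 fell by 0.99 ± 0.06 on gelatin (limma adjusted p = 0.000271) and by 0.86 ± 0.06 on LN511 (limma adjusted p = 0.000421).

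Pgam1, the dominant phosphoglycerate mutase with 97.9% to 99.9% of its step, was at 643 and 649 FPKM on gelatin in Std, 574 and 552 on gelatin in 2i, 609 and 597 on LN511 in Std and 539 and 602 on LN511 in 2i. It was not called on gelatin (−0.20 ± 0.07, limma adjusted p = 0.101) or on LN511 (−0.08 ± 0.07, limma adjusted p = 0.45). The value on gelatin passed after upper quartile scaling (limma adjusted p = 0.0248) and without LN511 2i replicate 1 or replicate 2 (0.0321 each). Bpgm, which makes 2,3-bisphosphoglycerate, was at 5.33 and 7.46 FPKM on gelatin in Std, 3.97 and 6.53 on gelatin in 2i, 12.8 and 9.63 on LN511 in Std and 4.30 and 0.908 on LN511 in 2i. On LN511 both 2i libraries lay below both Std libraries, whereas on gelatin the groups overlapped. Bpgm fell by 1.93 ± 0.50 on LN511 (limma adjusted p = 0.0409). That call was lost on leaving out any library but LN511 2i replicate 1 (limma adjusted p of 0.0616 to 0.174), and the replicates of LN511 2i differ by 4.74-fold.

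Eno1, the dominant enolase with 97.1% to 99.2% of its step, was at 1798 and 1682 FPKM on gelatin in Std, 1085 and 1208 on gelatin in 2i, 1390 and 1582 on LN511 in Std and 1221 and 1048 on LN511 in 2i. Each 2i library was below every Std library. It fell by 0.60 ± 0.10 on gelatin (limma adjusted p = 0.0119) and by 0.39 ± 0.10 on LN511 (limma adjusted p = 0.0431). The call on gelatin was lost without any 1 of gelatin Std replicate 1, gelatin Std replicate 2 and gelatin 2i replicate 1 (limma adjusted p of 0.0514 to 0.0746), and the call on LN511 without any 1 library but LN511 2i replicate 1 (0.0611 to 0.204). Eno1b, a near-identical copy of Eno1 between which reads can be split, was at 165 and 158 FPKM on gelatin in Std, 102 and 91.9 on gelatin in 2i, 139 and 141 on LN511 in Std and 87.6 and 105 on LN511 in 2i. The copy was lower in every 2i library too, and it is not counted in the share of Eno1. Eno3, the muscle enolase, was at 22.3 and 19.1 FPKM on gelatin in Std, 13.8 and 9.71 on gelatin in 2i, 41.0 and 27.0 on LN511 in Std and 8.93 and 10.7 on LN511 in 2i. It fell by 1.67 ± 0.25 on LN511 (limma adjusted p = 0.007), and the difference on gelatin was −0.78 ± 0.25 (limma adjusted p = 0.0904). Eno3 shares 3675 bases with Pfn1, which had a mean of 840 FPKM, and how the reads of that stretch were divided is not known here. Eno2, the neuronal enolase, was at 0 to 1.35 FPKM and was not tested.

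Pkm, pyruvate kinase, was at 689 and 693 FPKM on gelatin in Std, 944 and 409 on gelatin in 2i, 1587 and 914 on LN511 in Std and 932 and 1482 on LN511 in 2i. Replicates differed by up to 2.31-fold and the media overlapped on both coatings. The differences were −0.15 ± 0.44 on gelatin and −0.04 ± 0.44 on LN511, neither of them called, so a change of the size seen for Tpi1 or Eno1 was not detectable for Pkm. Only 2 of its 11 RefSeq transcripts had rows, and all of its FPKM stood in 1 of them, with the other at 0 in every library. Since a 0 in these files can be a failed estimate, the splice forms PKM1 and PKM2 are not told apart here.

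**Figure D3:**
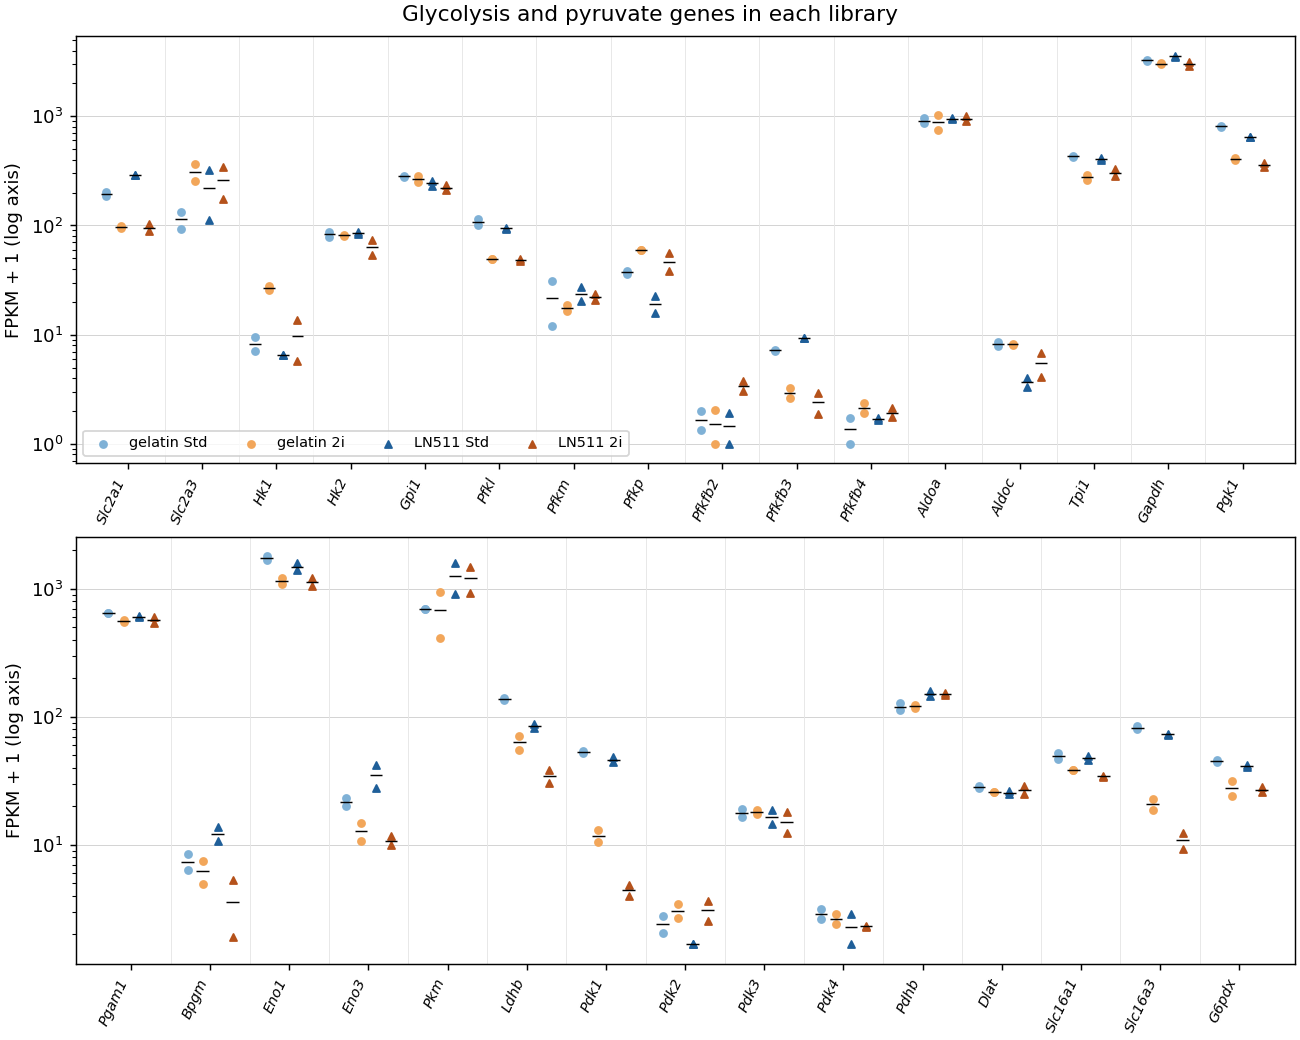
FPKM + 1 on a log axis for the 31 tested members in pathway order, 1 point per library, circles for gelatin, triangles for LN511, blue for Std and orange for 2i, with short lines at the group means. Pgk1, Pfkl, Ldhb, Pdk1 and Slc16a3 separate by medium with close replicates. Replicates differ by up to 4.74-fold for Bpgm, 2.87-fold for Slc2a3, 2.74-fold for Pdk4, 2.70-fold for Hk1 and Pfkm and 2.31-fold for Pkm. Pfkfb2 and Pfkfb4 have replicates at 0.

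Lactate dehydrogenase interconverts pyruvate and lactate. Ldha, the muscle-type subunit, was listed at 0 in all 8 libraries in both transcript rows it has, out of 3 RefSeq transcripts, and since a 0 in these files can be a failed estimate no level is read from it. Ldhb, the heart-type subunit, was at 134 and 139 FPKM on gelatin in Std, 53.7 and 70.3 on gelatin in 2i, 87.1 and 80.1 on LN511 in Std and 37.7 and 29.5 on LN511 in 2i. The order of the groups from high to low was gelatin Std, LN511 Std, gelatin 2i and LN511 2i, with no overlap between neighbours. Ldhb fell by 1.14 ± 0.16 on gelatin (limma adjusted p = 0.00635) and by 1.30 ± 0.16 on LN511 (limma adjusted p = 0.00324). The coating differences of −0.70 ± 0.16 in Std and −0.86 ± 0.16 in 2i were not called (limma adjusted p = 0.0979 and 0.135).

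Lactate and pyruvate cross the membrane through monocarboxylate transporters. Slc16a3, MCT4, known as the lactate exporter of glycolytic cells, was at 83.5 and 78.5 FPKM on gelatin in Std, 17.6 and 22.0 on gelatin in 2i, 70.8 and 72.7 on LN511 in Std and 11.4 and 8.21 on LN511 in 2i. Every 2i library lay far below every Std library, and LN511 2i below gelatin 2i. It fell by 1.99 ± 0.17 on gelatin (limma adjusted p = 0.00109) and fell by 2.77 ± 0.17 on LN511 (limma adjusted p = 0.000269), that is 4.09-fold and 7.32-fold by group means. Slc16a1, the widely expressed MCT1, was at 51.1 and 45.8 FPKM on gelatin in Std, 37.4 and 37.7 on gelatin in 2i, 45.0 and 48.4 on LN511 in Std and 32.9 and 33.8 on LN511 in 2i. Its 2i libraries were also below its Std libraries, by a smaller margin. Slc16a1 fell by 0.47 ± 0.10 on LN511 (limma adjusted p = 0.0248), a call lost without any 1 of the 4 LN511 libraries (0.0653 to 0.113), and the difference on gelatin was −0.36 ± 0.10 (limma adjusted p = 0.0656, and 0.0324 after upper quartile scaling). Of the FPKM of both transporters, Slc16a3 held 60.0% to 63.2% in Std and 19.6% to 36.8% in 2i, so that Slc16a1 was the dominant one in every 2i library. Slc16a3 shares 1292 bases with Csnk1d, whose mean was 35.8 FPKM.

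Pyruvate dehydrogenase kinases phosphorylate and inactivate the pyruvate dehydrogenase complex and so hold pyruvate back from mitochondrial oxidation. Pdk1 was at 50.9 and 53.4 FPKM on gelatin in Std, 9.54 and 12.0 on gelatin in 2i, 43.0 and 47.7 on LN511 in Std and 2.97 and 3.85 on LN511 in 2i. The medium groups were far apart on both coatings, and LN511 2i was the lowest group. Pdk1 fell by 2.18 ± 0.17 on gelatin (limma adjusted p = 0.000711) and by 3.40 ± 0.17 on LN511 (limma adjusted p = 0.000136), which is 4.85-fold and 13.3-fold by group means and the largest decrease of a member on either coating. Pdk3 ranged from 11.4 to 18.1 FPKM over the 8 libraries and was not called, with differences of 0.02 ± 0.23 on gelatin and −0.14 ± 0.23 on LN511. Pdk2, at 0.671 to 2.66 FPKM, and Pdk4, at 0.688 to 2.13 FPKM, were low and not called. Pdk1 held 71.5% to 72.9% of the kinase FPKM in Std, and in 2i Pdk3 was the dominant kinase with 52.3% to 70.9%. The summed FPKM of the kinases was 72.3 ± 3.34 (SD, n = 2) in gelatin Std, 31.5 ± 0.04 in gelatin 2i, 62.9 ± 5.50 in LN511 Std and 20.9 ± 4.09 in LN511 2i. Pdp1 and Pdp2, phosphatases of the complex, are among the neighbouring genes below and were at 0 to 6.06 FPKM. Pdp1 differed by −0.80 ± 0.25 on gelatin and −0.70 ± 0.25 on LN511, neither called (limma adjusted p = 0.0857 and 0.11). Pdp2 fell by 1.68 ± 0.30 on LN511 (limma adjusted p = 0.0118), a call lost without either LN511 Std library. It was listed at 0 in both LN511 2i libraries, which can be a failed estimate. On gelatin Pdp2 differed by 0.66 ± 0.30 (limma adjusted p = 0.192).

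Of the complex itself, the listed subunits Pdhb and Dlat were not called, and 2 further subunits from the neighbouring genes described below were called on LN511. Pdhb, the E1 beta subunit, was at 111 and 126 FPKM on gelatin in Std, 116 and 123 on gelatin in 2i, 157 and 144 on LN511 in Std and 146 and 151 on LN511 in 2i. Its medium differences were 0.01 ± 0.09 on gelatin and −0.02 ± 0.09 on LN511. Its LN511 libraries all lay above its gelatin libraries, by 0.34 ± 0.09 in Std and 0.31 ± 0.09 in 2i, and neither difference was called (limma adjusted p = 0.142 and 0.282). Dlat, the E2 subunit, ranged from 23.7 to 27.9 FPKM and was not called. Dld, the E3 subunit, which other dehydrogenase complexes share, was at 56.5 and 48.8 FPKM on gelatin in Std, 42.4 and 42.8 on gelatin in 2i, 54.5 and 55.8 on LN511 in Std and 42.2 and 40.8 on LN511 in 2i. It fell by 0.40 ± 0.10 on LN511 (limma adjusted p = 0.0413). Pdhx, the protein that binds E3 to the complex, was at 10.6 and 12.9 FPKM on gelatin in Std, 16.0 and 16.4 on gelatin in 2i, 13.3 and 14.9 on LN511 in Std and 21.3 and 22.0 on LN511 in 2i, and rose by 0.58 ± 0.15 on LN511 (limma adjusted p = 0.0436). For both genes the media did not overlap on either coating, and neither was called on gelatin (limma adjusted p = 0.111 for each). Without any 1 of the gelatin 2i or LN511 libraries the calls on LN511 were lost, at a limma adjusted p of 0.0678 to 0.15 for Dld and 0.0695 to 0.173 for Pdhx.

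G6pdx, glucose 6-phosphate dehydrogenase, takes glucose 6-phosphate into the pentose phosphate pathway. It was at 43.2 and 44.8 FPKM on gelatin in Std, 23.1 and 30.7 on gelatin in 2i, 39.3 and 41.0 on LN511 in Std and 24.9 and 27.1 on LN511 in 2i. All 2i libraries were below all Std libraries. G6pdx fell by 0.70 ± 0.15 on gelatin (limma adjusted p = 0.0256) and by 0.61 ± 0.15 on LN511 (limma adjusted p = 0.0355). The first call was lost without any 1 of gelatin Std replicate 1, gelatin Std replicate 2 and gelatin 2i replicate 1 (0.0899 to 0.108), and the second without any 1 of the gelatin Std or LN511 libraries (0.0602 to 0.139). The gene overlaps Ikbkg over 19398 bases, and the mean of Ikbkg was 2.61 FPKM.

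Few members were called between the coatings. In Std medium 1 of 31 members was higher on LN511 than on gelatin, where 1.54% of all tested genes were higher, and none was lower, while 7 had an unadjusted limma p under 0.05. The share of all tested genes at that unadjusted threshold was not worked out. No excess is therefore read from such counts, here or below. The 1 gene was Slc2a1, which rose by 0.57 ± 0.09 on LN511 (limma adjusted p = 0.0365). This call was lost without any 1 of the gelatin libraries or of the LN511 Std libraries (limma adjusted p of 0.0806 to 0.168). Pgk1 was 810 and 803 FPKM on gelatin and 651 and 645 on LN511 in Std, without overlap, and its difference of −0.32 ± 0.06 was not called (limma adjusted p = 0.0615). It passed after quantile normalization (0.0261), after upper quartile scaling (0.022) and without LN511 2i replicate 1 (0.0313) or replicate 2 (0.0316).

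In 2i medium 0 of 31 members were called between the coatings, where 0.0195% of all tested genes were, and 9 had an unadjusted limma p under 0.05. Pdk1 had the smallest p, at −1.41 ± 0.17 (limma adjusted p = 0.0542, and 0.0482 when genes with doubtful zeros were kept). The test of whether the medium difference depended on the coating called 0 of 31 members, where it called 0.185% of all tested genes, and 4 members had an unadjusted limma p under 0.05. The differences nearest to a call were those of Pdk1, −1.21 ± 0.25 (limma adjusted p = 0.137), and of Slc2a1, −0.61 ± 0.13 (limma adjusted p = 0.165). A member called on 1 coating and not on the other is therefore not shown to differ between them; for Hk1 that test gave −1.27 ± 0.56 (limma adjusted p = 0.438) and for Bpgm −1.67 ± 0.71 (limma adjusted p = 0.414).

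A list of 65 neighbouring genes, covering other isoenzymes and subunits, carriers, the pentose phosphate pathway, pyruvate side reactions, glycogen and regulators, put the members beside their pathway. Of these, 42 were tested; 7 rose and 5 fell in 2i on gelatin, beside 8.20% and 7.20% of all tested genes, and 9 rose and 8 fell on LN511, beside 8.58% and 9.95%. None was called by limma between the coatings in Std (9 at an unadjusted p under 0.05), between them in 2i (7) or for the interaction (8). The member G6pdx, which fell on both coatings, is not counted among the neighbouring genes of the pentose phosphate pathway. Of these, 3 of 6 tested genes rose on each coating, where 8.20% of all tested genes rose on gelatin and 8.58% on LN511, and none of the 6 was called lower. The 3 were the same on both coatings. These were Pgd, which makes the second NADPH of the pathway, and Taldo1 and Rpe, of the branch that interconverts sugar phosphates. Pgd was at 99.2 and 110 FPKM on gelatin in Std, 137 and 141 on gelatin in 2i, 99.8 and 100.2 on LN511 in Std and 152 and 138 on LN511 in 2i, with no overlap of the media. It rose by 0.40 ± 0.09 on gelatin (limma adjusted p = 0.0273) and by 0.53 ± 0.09 on LN511 (limma adjusted p = 0.00912). Taldo1 rose by 0.36 ± 0.09 and 0.57 ± 0.09, and Rpe by 0.45 ± 0.11 and 0.83 ± 0.11. Tkt, of the same pathway, was not called on either coating. It was at 188 and 184 FPKM on gelatin in Std and 151 and 29.9 on gelatin in 2i. On LN511 it was at 138 and 143 in Std and 156 and 157 in 2i. On gelatin all 3 calls were lost without some library: Pgd at a limma adjusted p of up to 0.119, Taldo1 up to 0.146 and Rpe up to 0.149, each without any 1 of the 4 gelatin or 2 LN511 Std libraries and Rpe without any 1 library. After upper quartile scaling they were lost too (0.0584, 0.0541 and 0.0634). On LN511 Pgd was lost without LN511 Std replicate 1 (0.0527) or replicate 2 (0.0518).

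**Figure D4:**
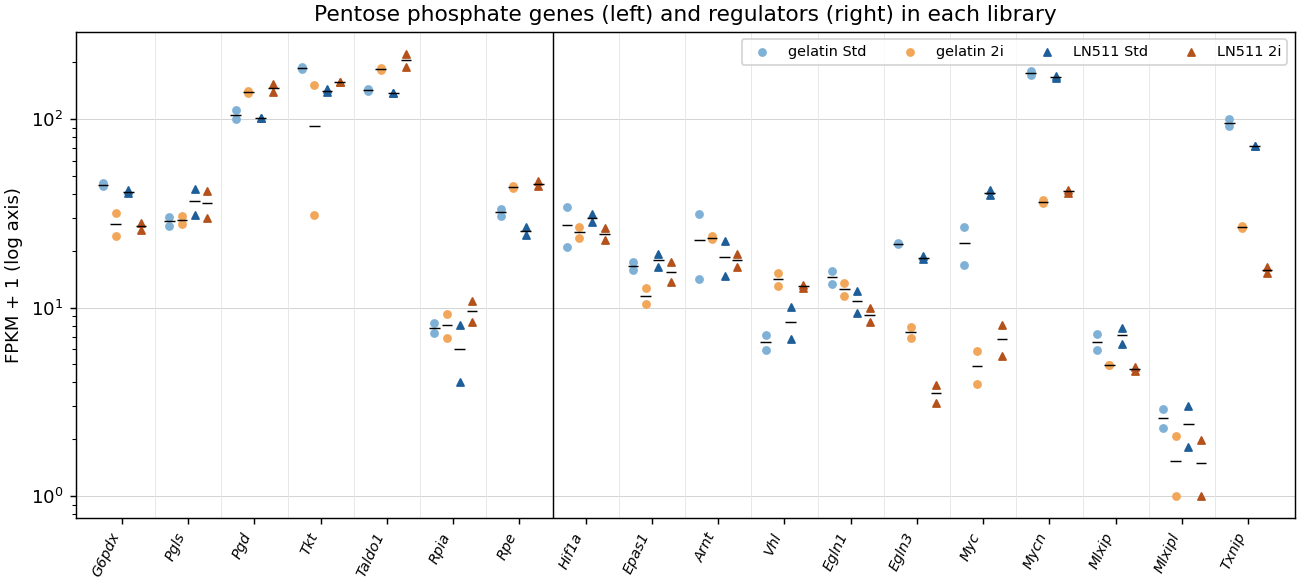
FPKM + 1 on a log axis for the pentose phosphate genes (left of the line) and the tested regulators (right), 1 point per library, circles for gelatin, triangles for LN511, blue for Std and orange for 2i, with short lines at the group means. G6pdx is lower in every 2i library while Pgd, Taldo1 and Rpe are higher, and Mycn, Myc, Egln3 and Txnip are lower in every 2i library.

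Of 11 tested regulators, 4 fell on gelatin, where 7.20% of all tested genes fell, and 4 on LN511, where 9.95% fell. On both coatings these were Mycn, Myc, Egln3 and Txnip. Mycn, a MYC family transcription factor, was at 178 and 170 FPKM on gelatin in Std, 36.1 and 34.9 on gelatin in 2i, 164 and 168 on LN511 in Std and 41.1 and 39.6 on LN511 in 2i, and fell by 2.26 ± 0.08 on gelatin (limma adjusted p = 4.29e-05). Egln3, a prolyl hydroxylase that marks hypoxia-inducible factors for destruction and is itself their target, was at 20.6 and 20.9 FPKM on gelatin in Std, 5.91 and 6.88 on gelatin in 2i, 17.8 and 17.1 on LN511 in Std and 2.13 and 2.89 on LN511 in 2i. Txnip, which restrains glucose uptake, fell by 1.84 ± 0.10 on gelatin (limma adjusted p = 0.000179) and by 2.19 ± 0.10 on LN511 (limma adjusted p = 0.000111), and Myc by 2.15 ± 0.32 and 2.61 ± 0.32. The genes of the hypoxia-inducible factor subunits were not called: Hif1a differed by −0.09 ± 0.24 on gelatin, Epas1 by −0.53 ± 0.20 and Arnt by 0.16 ± 0.38, and these RNA values do not show the protein level. Vhl, a subunit of the ligase that degrades the factors, rose on gelatin by 1.12 ± 0.24 (limma adjusted p = 0.0277), a call lost without any 1 of the 4 gelatin libraries (0.0718 to 0.127). Among genes at pyruvate, Me1, malic enzyme, rose on both coatings, by 1.14 ± 0.15 on gelatin (limma adjusted p = 0.00423) and 1.22 ± 0.15 on LN511 (limma adjusted p = 0.00267).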

How the data were processed

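RNA-seq was deposited for 8 libraries of 4 groups. The authors deposited FPKM values for transcripts and for genes, 1 column per library (0 columns were left out). The tools, per the submitters' processing notes, were TopHat2 2.1.1 and Cufflinks 2.1.1 with the build mm10; settings, annotation, strandedness and scaling are not stated in those notes. RefSeq transcript FPKM were summed per gene: 31786 of 32688 RefSeq rows matched a symbol in RefSeq's gene table on GRCm38.p6 (mm10). Another 21844 rows are transcripts assembled by the authors and were left out; they hold 13.7% to 58.4% of a library's summed FPKM, and the sums lack the fragments assigned there. The gene table served as an alternative only: of values at 1 FPKM or more by transcript sums, 47.3% are listed at 0 there, and so are 72 of 175 such member values.

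Genes at 1 FPKM or more in at least 2 libraries were kept (11244). Since a 0 can be a failed estimate, 836 genes were set aside for a 0 in 1 replicate beside at least 5 FPKM in its partner, and 130 for a group wholly at 0 beside a group mean of at least 5 FPKM. The remaining 10278 were tested on log2(FPKM + 1) by limma 3.58.1 (R 4.3.3; lmFit and eBayes with trend), with 1 mean per group and 4 residual degrees of freedom. The fit was tested on simulated data. Values of all libraries are given for members called in some comparison and for the dominant member of each step, and ranges for the rest. Genes named outside the list of members (the neighbouring pathway genes) were picked among the called ones after their values were seen. The hypoxia-inducible factor subunits, Adpgk, Pdp1 and Tkt, which were not called, were added. The members and lists were chosen with earlier results of these data known. Alternatives were another pseudocount, no filter on low values, doubtful zeros kept, 2 other scalings, the libraries of a comparison alone, the gene table, no trend, a replicate block and leaving out each library.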

Additional observations from a re-analysis of the deposited data

How the results depend on the processing

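No member call changed direction under any alternative in which the member was tested. Of 27 member calls, 15 were kept under every setting but the gene table, and the same number on leaving out each library; 12 were lost under some setting, with the losses on leaving out a library given with the genes. By limma adjusted p, the others on gelatin were Hk1 with no filter (0.0528) and the replicate block (0.0512), Pfkfb3 with a pseudocount of 0.1 (0.0522), no filter (0.0523) and its libraries alone (0.0578), Eno1 without trend (0.0591) and G6pdx with its libraries alone (0.0835) and without trend (0.0505). On LN511, the libraries alone lost Pfkp (0.0736), Tpi1 (0.0769), Gapdh (0.158), Bpgm (0.114), Eno1 (0.121), Slc16a1 (0.0669) and G6pdx (0.0515). The fit without trend lost Tpi1 (0.0988), Gapdh (0.283), Bpgm (0.0555), Eno1 (0.155), Slc16a1 (0.0636) and G6pdx (0.0662). The replicate block lost Gapdh (0.0527), Bpgm (0.0621) and Eno1 (0.0701), and no filter the same 3 (0.0778, 0.0652 and 0.0713). Bpgm and Eno1 were also lost with a pseudocount of 0.1 (0.0623 and 0.0522) and doubtful zeros kept (0.0595 and 0.0588), and Eno1 after quantile normalization (0.0517). Slc2a1 between coatings in Std was lost with its libraries alone (0.0749), without trend (0.142) and with the replicate block (0.0795). The gene table fit held 2784 genes and 4 members, so its counts rest on fewer genes. Among neighbouring genes, Pgm2 rose on both coatings by transcript sums and is at −0.76 on gelatin and −1.3 on LN511 in the gene table, which are the values that the transcript sums give under the symbol Pgm1, so the tables name these 2 genes differently.

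For 2i on gelatin, 1583 genes were called. Leaving out 1 library gave 648 to 1516, the 4 libraries of the comparison alone 998, and 295 came from the gene table. Members higher were 1, against 0 with no filter on low values, in the gene table or with the replicate block, 2 with the libraries of the comparison alone and 0 to 1 on leaving out a library. Members lower were 10, against 8 with the libraries of the comparison alone or without trend and 9 with a pseudocount of 0.1 or no filter. They were 11 after quantile normalization, 13 after upper quartile scaling and 1 in the gene table. The count was also smaller on leaving out any of the gelatin libraries. For 2i on LN511, 1905 genes were called, against 861 to 1625 on leaving out a library, 962 with its libraries alone and 326 in the gene table. Members higher were 1, against 0 with its libraries alone or in the gene table and 0 to 1 on leaving out a library. Members lower were 14, against 8 with its libraries alone or without trend, 1 in the gene table and 8 to 13 on leaving out a library.

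For coating in Std, 216 genes were called, against 9 to 199 on leaving out a library, 6 with its libraries alone, 135 in the gene table and 80 with the replicate block. Its 1 higher member became 0 with its libraries alone, in the gene table, without trend and with the replicate block, and was 0 to 1 on leaving out a library. Members lower were 0, against 1 after quantile normalization or upper quartile scaling and 0 to 1 on leaving out a library. For coating in 2i, 2 genes were called, against 0 with a pseudocount of 0.1, its libraries alone or the replicate block, 15 with no filter, 42 with doubtful zeros kept, 54 in the gene table, 8 without trend and 0 to 12 on leaving out a library; 1 member was lower with doubtful zeros kept. For the interaction, 19 genes were called, against 31 with no filter, 53 with doubtful zeros kept, 65 in the gene table, 1 with the replicate block and 0 to 11 on leaving out a library. It cannot be fitted on fewer groups. Where no value shows it, the cause of these shifts was not tested.

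Replicate numbers did not pair the libraries: the replicate differences of the groups correlated at −0.044 to 0.015, so the replicate block uses numbers that are only shared. Leaving out a library leaves its group with 1, which is assumed to vary like the others. Depth limits members at a few FPKM.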
